A study of Mus musculus with 2 samples.

Results

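The telomere-proximal Hmga2 peaks are the 1143 rows of an Hmga2 ChIP-seq peak list whose centre lay within 5 Mb of the largest peak end on the same autosome, for autosomes 1 to 19. They make up 3.35% of the 34086 autosomal peaks and 3.30% of the 34597 peaks in the list. Membership rested on position alone, and density, length and pileup had no part in it. Each end was compared with the interior of its own chromosome, which leaves out the first 8 Mb and runs up to the 5 Mb limit and held 31863 peaks over 2222 Mb. The chromatin came from E14Tg2a, a mouse embryonic stem cell line, labelled as induced into EpiLCs (epiblast-like cells) and stabilized, whereas the methods of the study describe epiblast stem cells that had been made from induced pluripotent cells. An antibody against Hmga2 gave the ChIP library, and chromatin without antibody gave the input, with the same treatment in both. The authors called peaks on this ChIP library with the input as background, so 1 experiment without replicate underlies every value. No test between conditions was possible, intervals below cover counting error only, and neither the peaks nor the chromosomes are replicates.

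Hmga2 is a non-histone chromatin protein whose AT-hook domains contact the minor groove of short A+T-rich DNA. Mouse chromosomes are acrocentric, with the centromere at the low-numbered end, so that the highest coordinates of a chromosome lie beside its long-arm telomere. Long stretches of a mammalian chromosome differ in base composition, and A+T-rich stretches tend to be gene-poor and to lie at the nuclear lamina, while G+C-rich stretches tend to be gene-rich. The telomeric repeat itself is not part of the assembled chromosome, so these peaks lie in the DNA next to it.

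As a whole, the telomere-proximal 5 Mb held fewer Hmga2 peaks than the interior, but the 19 ends differed widely from each other. Summed over the autosomes there were 12.0 peaks per Mb near the telomeric end (95% Poisson interval 11.3 to 12.7) and 14.3 per Mb in the interior (14.2 to 14.5), a ratio of 0.839 (exact binomial interval 0.790 to 0.890). The density was lower than in the interior on 14 of the 19 chromosomes and higher on 5. Chromosome 4 had the sparsest end, with 3.40 peaks per Mb, and chromosome 17 the densest, with 26.0, a range of 7.65-fold, whereas the interiors ran only from 8.58 on chromosome 7 to 19.3 on chromosome 16, or 2.25-fold. An interior is an average over a much longer stretch, so the narrower range of the interiors cannot be read against the ends directly.

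To set each end against stretches of equal length, the interiors were divided into 434 windows of 5 Mb, 9 to 36 per chromosome. Of these windows, 57.6% were below the mean density of their own interior, compared with the 14 of 19 ends. A density under 0.5 times the interior was found at 6 ends and in 10.1% of the windows. A density over 1.5 times the interior was found at 3 ends and in 14.7% of the windows. The windows spread from 0 to 3.05 times their interior, and all ends, from 0.243 to 2.07 times, fell inside that spread. The median end stood at 0.739 times its interior and the median window at 0.915. Measured against the mean of the chromosomes' median windows, in place of the whole interior, the summed density of the ends stood at 0.949, since the windows were skewed towards high densities. That value sets a mean over the ends against medians of windows and does not compare like with like.

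**Figure D1:**
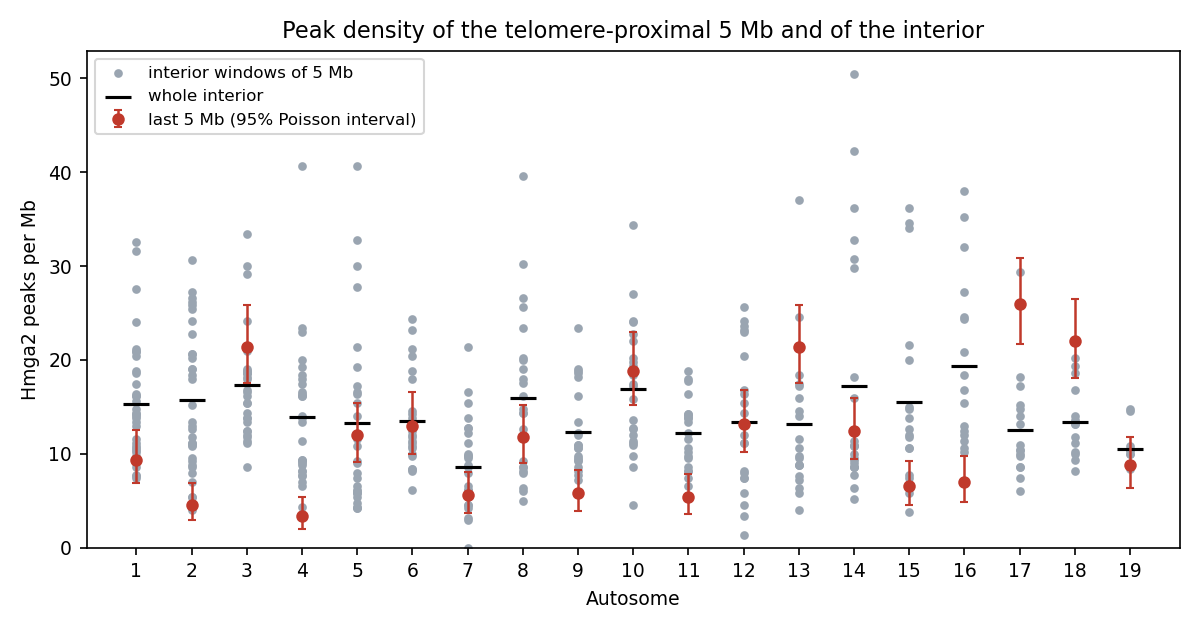
Hmga2 peaks per Mb (vertical axis) for each autosome (horizontal axis), with red points for the last 5 Mb and their 95% Poisson interval, grey points for the interior windows of 5 Mb and black dashes for the whole interior. The red point lies under the dash on 14 chromosomes and over it on chromosomes 3, 10, 13, 17 and 18.

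Relative to their own interior, the sparsest ends were those of chromosomes 4, 2 and 16. Chromosome 4 had 17 peaks in its last 5 Mb, 0.243 times the density of its interior (interval 0.142 to 0.391), fewer than in any of its 28 interior windows, the lowest of which had 4.40 peaks per Mb. Chromosome 2 had 23 peaks, 0.293 times its interior (0.185 to 0.440), and 1 of its 33 windows was lower. Chromosome 16 had 35 peaks, 0.362 times its interior (0.251 to 0.506), although its interior was the densest of all, and none of its 16 windows was lower. The ends of chromosomes 15, 11 and 9 followed with ratios of 0.426, 0.441 and 0.472. No window of chromosome 11 or 9 was lower, and on chromosome 9 the lowest window had the same 5.80 peaks per Mb as the end. Ratios of 0.614, 0.652, 0.722 and 0.739 on chromosomes 1, 7, 14 and 8 had intervals that stayed under 1 as well, but between 7 and 14 interior windows of these chromosomes were sparser than the end.

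Relative to their own interior, the densest ends were those of chromosomes 17, 18 and 13. Chromosome 17 had 130 peaks in its last 5 Mb, 2.07 times the density of its interior (interval 1.71 to 2.49), and 15 of its 16 windows were sparser. Chromosome 18 had 110 peaks, 1.64 times its interior (1.33 to 1.99), more than in any of its 15 windows. Chromosome 13 had 107 peaks, 1.63 times its interior (1.32 to 1.98), with 18 of 21 windows sparser. Chromosome 3 had 107 peaks as well, but its interior was denser and the ratio was 1.24 (1.01 to 1.50). On chromosomes 5, 6, 10, 12 and 19 the ratio lay between 0.833 and 1.11 and its interval held 1, so a difference was not detectable there at these counts. A single chromosome weighed on the sum, since without chromosome 17 the ratio over the other 18 was 0.781.

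The peaks were not spread evenly within the last 5 Mb. In steps of 1 Mb from the end inwards, the summed density was 15.4, 13.5, 10.4, 11.3 and 9.58 peaks per Mb. The outermost step thus had 292 peaks, and the 4 steps behind it had 851, or 11.2 per Mb. On 13 of the 19 chromosomes the outermost step exceeded the mean of the next 4, and on 12 when the peak that sets the end was left out, which must be there by the way the end is defined. Chromosomes 10, 6 and 14 held 37, 28 and 26 peaks in the outermost step, together 31.2% of it, and without these 3 the densities of the outermost step and of the next 4 were 12.6 and 11.3 peaks per Mb. The 15.4 and the 12.6 still count the peak that sets each end, which adds 1 peak to every outermost step. Without it, the 15.4 becomes 14.4. With the limit at 2 Mb, the ratio to the interior was 1.01 and only 8 chromosomes were below their interior.

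**Figure D2:**
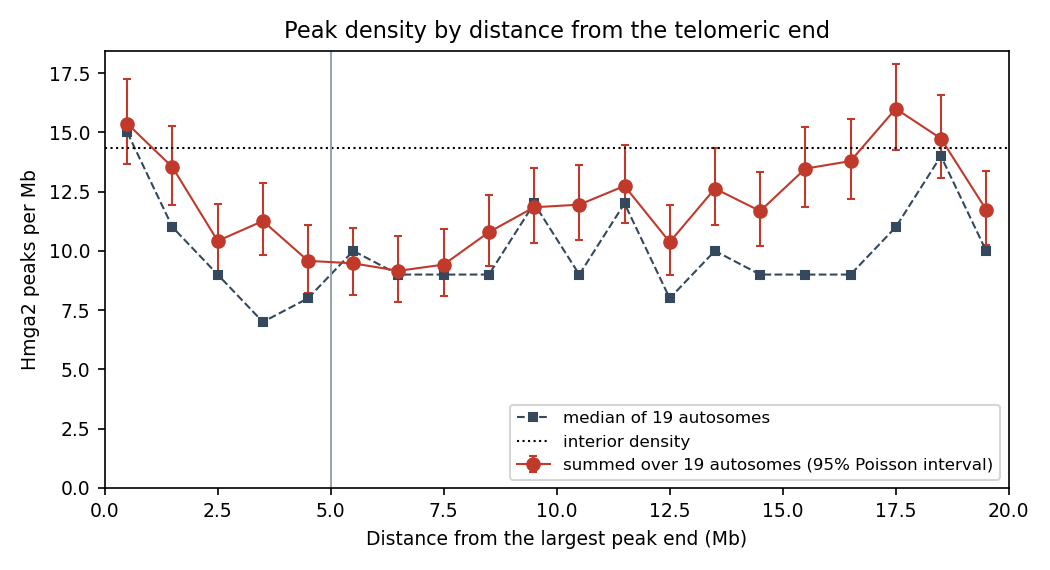
Hmga2 peaks per Mb in steps of 1 Mb by distance from the largest peak end, summed over 19 autosomes (red, 95% Poisson interval) and as the median chromosome (dark blue), with the 5 Mb limit as a vertical line and the interior density as a dotted line. The summed density falls from 15.4 in the outermost step to between 9.16 and 9.58 from 4 to 8 Mb.

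The 5 Mb limit did not mark an edge in the density. The next 5 Mb inwards, from 5 to 10 Mb, held 963 peaks, or 10.1 per Mb (Poisson interval 9.51 to 10.8), which was 0.707 times the interior (0.662 to 0.754) and thus lower than the end itself. The end held more peaks than this neighbouring stretch on 11 chromosomes, fewer on 7 and as many on 1. Both stretches lay under the interior density on 13 chromosomes and both over it on 3. Chromosomes 17 and 18 changed from 130 and 110 peaks at the end to 52 and 50 peaks in the neighbouring stretch. The other end of the autosomes, between the first peak and 8 Mb, had 11.7 peaks per Mb, 0.818 times the interior (0.769 to 0.869), with an interval that overlaps that of the telomeric end.

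**Figure D3:**
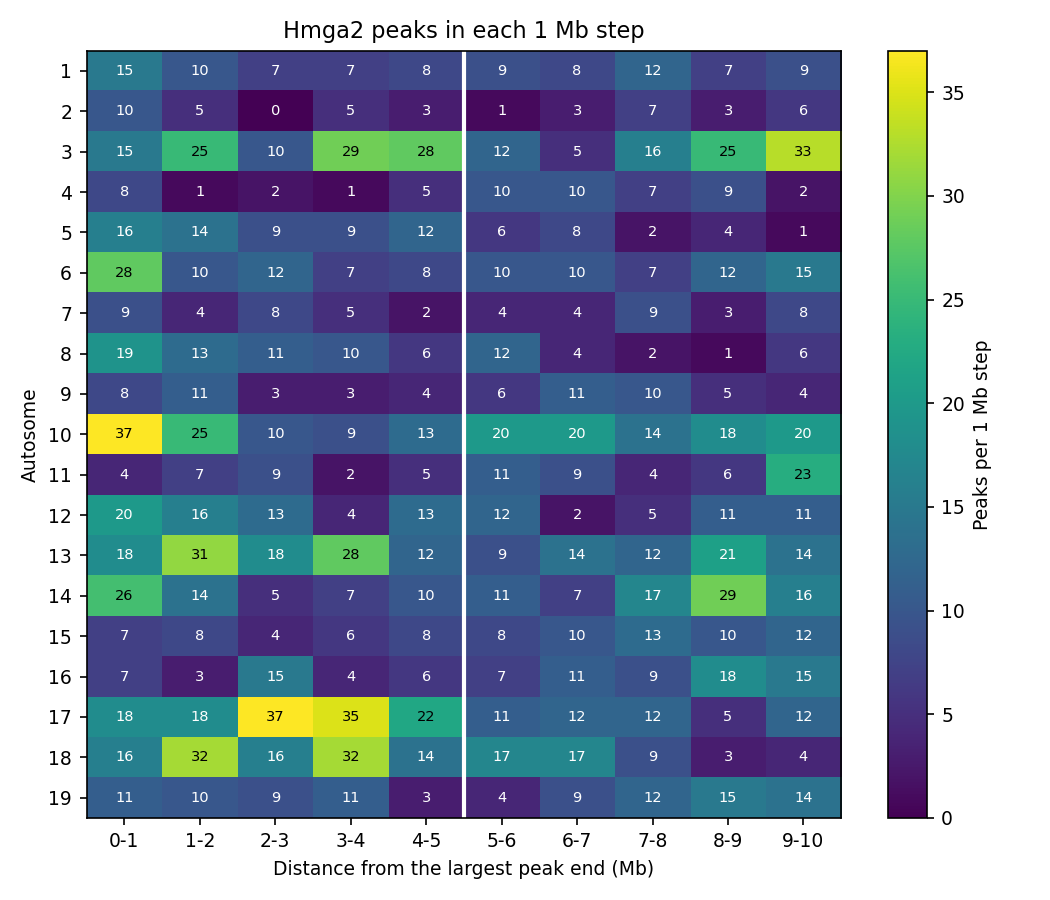
Number of Hmga2 peaks in each 1 Mb step (colour and digits) by autosome (rows) and distance from the largest peak end (columns), with the 5 Mb limit as a white line. Left of the limit, the steps of 30 peaks or more are on chromosomes 10, 13, 17 and 18 and the 1 empty step is on chromosome 2. Right of it, chromosome 3 has a step of 33.

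Among the 95 steps of 1 Mb in the 19 ends, 6 held 30 peaks or more. Chromosome 17 had 37 and 35 peaks between 2 and 4 Mb from its end, and chromosome 18 had 32 peaks each from 1 to 2 Mb and from 3 to 4 Mb. Chromosome 10 reached 37 peaks in its outermost step only and fell to 9 peaks between 3 and 4 Mb. Chromosome 13 had 31 peaks from 1 to 2 Mb. At the other extreme, chromosome 4 had 1, 2 and 1 peaks between 1 and 4 Mb, and chromosome 2 had none from 2 to 3 Mb.

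The base composition of the chromosome ends closely followed the order of their peak density. It was taken from GRCm38, since a genome in the build of the list was not used here. The last 5 Mb of each GRCm38 chromosome were measured from its own end, without transferring any coordinate, and the stretches therefore match the peak list only roughly. The 2 ends differed by less than 1 Mb on 15 chromosomes and by up to 5.84 Mb, on chromosome 7. Over the 19 ends, peaks per Mb and A+T percent had a Pearson r of 0.92 and a Spearman rho of 0.96, and r was 0.88 when chromosomes 17 and 18, the farthest from the median A+T percent, were left out. Over the 15 chromosomes whose ends nearly coincide, r was 0.93. The ratio of end to interior on the log2 scale went with the difference in A+T percent between end and interior in the same manner, with r = 0.91. These values describe 19 stretches measured in the same library and carry no test.

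The A+T percent ranged from 50.1 on chromosome 4 and 50.3 on chromosome 11 to 62.4 on chromosome 18 and 62.5 on chromosome 17, while all interiors lay between 56.5 and 59.5. It was lower at the end than in the interior on 14 of the 19 chromosomes. Of the 5 others, chromosomes 3, 13, 17 and 18 had more peaks at the end than in the interior, and chromosome 12 had 0.985 times as many per Mb. Chromosome 10 had an A+T percent of 56.8 at its end and 58.7 in its interior, with a peak density ratio of 1.11 whose interval held 1.

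**Figure D4:**
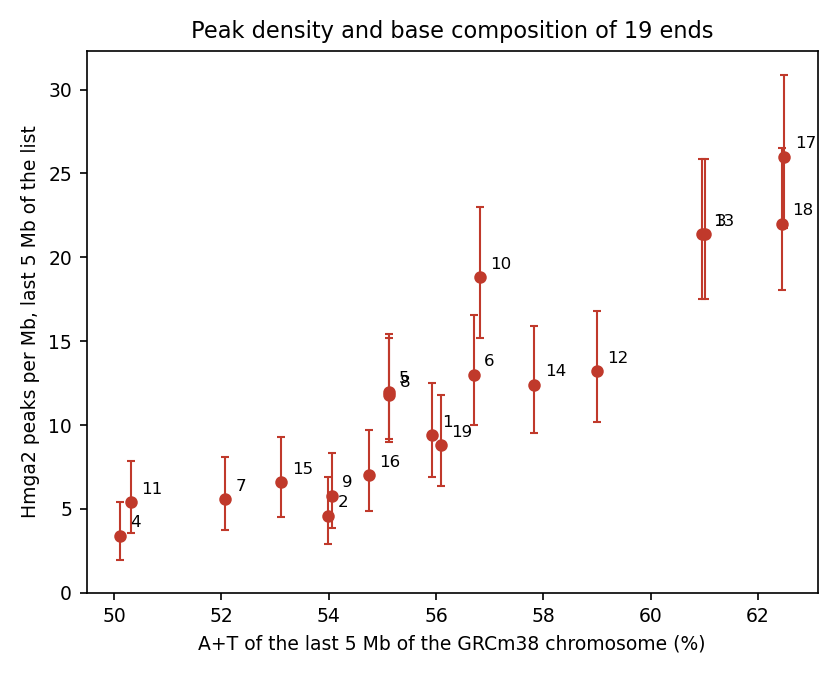
Hmga2 peaks per Mb in the last 5 Mb of the list (vertical axis, 95% Poisson interval) against the A+T percent of the last 5 Mb of the GRCm38 chromosome (horizontal axis), 1 numbered point for each of the 19 autosomes. The density rises from 3.40 on chromosome 4 to 26.0 on chromosome 17 as the A+T percent rises from 50.1 to 62.5.

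The genes of these ends differed as well. In the GENCODE annotation of GRCm38, the last 5 Mb of chromosome 17 held 4 protein-coding entries. They include Adcyap1, which codes for the neuropeptide PACAP, and Mettl4, which codes for a methyltransferase. The end of chromosome 18 held 9 entries, among them Cbln2, which codes for a synaptic organizer, and Socs6, which codes for a suppressor of cytokine signalling. The end of chromosome 13, dense in peaks as well, held 32 entries, and its 6.53 genes per Mb were near the 7.32 of its interior. Of the 3 ends with the lowest ratio to their interior, that of chromosome 4 held 93 entries, which include Trp73, a relative of the tumour suppressor p53, and Hes5, a target of Notch signalling, and that of chromosome 2 held 81. The end of chromosome 16 held 41 entries, which include Dyrk1a, a protein kinase, and Ets2, a transcription factor. The ends of chromosomes 11, 7, 9 and 15, which had fewer peaks per Mb than that of chromosome 16, held 110, 135, 71 and 142 entries. No peak was assigned to a gene, because the coordinates of the list are not those of GRCm38.

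Gene density ordered the ends less closely than base composition did. Over the 19 ends, peaks per Mb and protein-coding genes per Mb had a Pearson r of -0.49 and a Spearman rho of -0.73, and r was -0.78 without chromosomes 10 and 15, the farthest from the median. Chromosome 10 stood apart, with the highest gene density of all ends, 33.2 per Mb, and yet 18.8 peaks per Mb. Of its 166 entries, 60 are olfactory receptor genes (Olfr), a family that lies in large tandem clusters. Chromosome 15, with 28.7 genes per Mb and 26 keratin genes (Krt) among 142 entries, had 6.60 peaks per Mb. These 2 ends were singled out after their values had been seen.

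Differences in height and length between the peaks of the ends and of the interior were small. The pileup, which is the number of overlapping ChIP fragments averaged over the peak by the authors' peak caller, had a median of 6.34 at the ends (exact interval of the median 6.25 to 6.45, quartiles 5.61 and 7.60) and of 6.33 in the interior. The median length was 182 bp at the ends (174 to 190) and 188 bp in the interior, a difference of -6 bp with an interval of -14 to 2 bp. The interval left out 0 among peaks with a q under 0.05 (-7 bp, -13 to -1 bp) and with the limit at 10 Mb (-9 bp, -14 to -4 bp), where the median pileup was also higher by 0.12 (0.040 to 0.22). By chromosome, the median length was lower at the end on 11 chromosomes and higher on 8, and the median pileup was lower on 8, higher on 10 and equal on 1. Peaks of the shortest length in the list, 134 bp, made up 22.8% of the ends (95% Wilson interval 20.5% to 25.4%) and 20.5% of the interior. The ends differed more among themselves in pileup than the interiors did, from 5.87 on chromosome 17 to 7.77 on chromosome 4 compared with 6.18 to 6.58, but an end holds far fewer peaks than an interior.

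**Figure D5:**
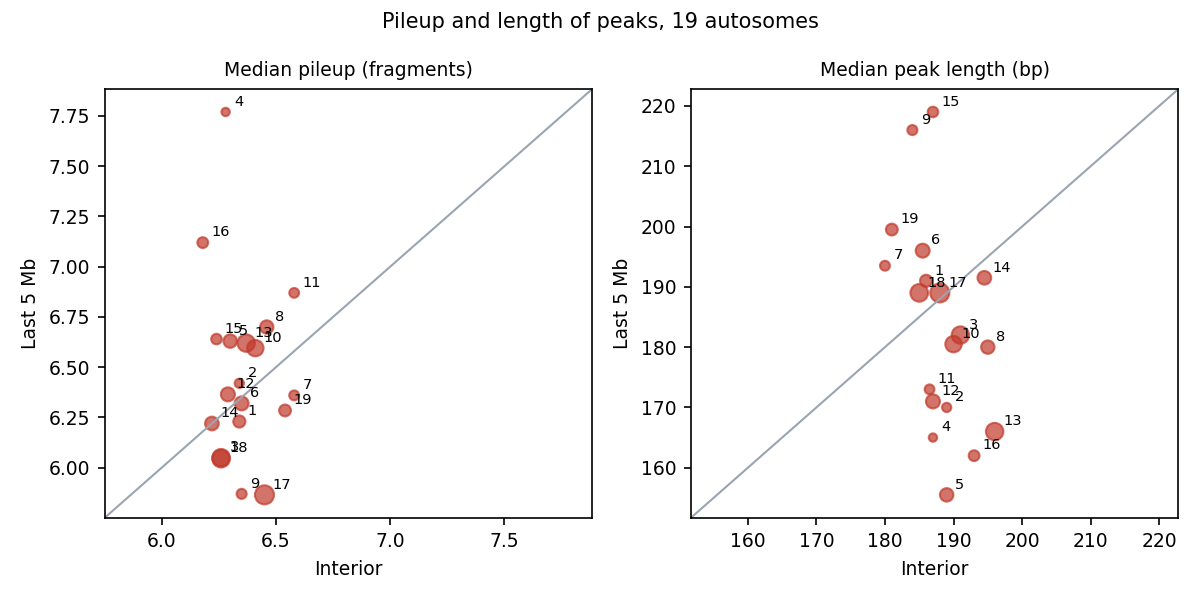
Median pileup in fragments (left) and median peak length in bp (right) of the last 5 Mb (vertical axes) against the interior (horizontal axes), with 1 numbered point for each autosome, sized by its number of peaks in the last 5 Mb, and a line of equal values. The points lie on both sides of the line in both panels, and chromosome 4 has the highest median pileup at its end, 7.77.

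The shares of firmly called and of high peaks differed from those of the whole list by less than their counting error. A q under 0.05 was reached by 820 of the 1143 peaks, or 71.7% (Wilson interval 69.1% to 74.3%), compared with 72.5% of all peaks in the list. A q under 1e-05 was reached by 66 peaks, or 5.77% (4.56% to 7.28%), compared with 6.01%. A pileup of at least 10 was found in 104 peaks, or 9.10% (7.57% to 10.9%), compared with 7.95% of the list. The median fold enrichment over the local background was 3.73 at the ends and 3.75 in the interior. The background that the caller took from the input, computed back from pileup and fold, was higher at the ends, with a median of 0.886 (exact interval 0.877 to 0.901) compared with 0.867 (0.865 to 0.869), and on 13 of 19 chromosomes. Its part in the lower number of peaks was not tested.

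The relation to base composition was found among the many low peaks and had smaller coefficients among the few high ones. Counted per end, the 1039 members with a pileup under 10 had an r of 0.92 and a rho of 0.95 with the A+T percent of the 19 ends, whereas the 104 members with a pileup of at least 10 had an r of 0.24 and a rho of 0.21. The 66 members with a q under 1e-05 had an r of 0.43. Without chromosomes 17 and 18 these 3 values of r were 0.89, 0.40 and 0.50, so the contrast between low and high peaks was then smaller. Both of the smaller sets hold few peaks per end, so their counts have a larger relative counting error. The A+T percent also had an r of -0.62 with the median pileup of the end and of -0.51 with its median background. Without chromosomes 17 and 18 these were -0.51 and -0.39. Whether the lower background has a part in the peak number of A+T-rich ends was not tested. Chromosome 17 had 128 low peaks and 2 high ones, while chromosome 4 had 12 low peaks and 5 high ones, and chromosomes 13 and 10 had the most high peaks, 12 and 11. Among peaks with a pileup of at least 10, the ratio of end to interior density was 0.973 (interval 0.792 to 1.18), so a lower density of high peaks at the ends was not detectable. With a q under 1e-05 it was 0.799, with an interval of 0.616 to 1.02 that also holds 1.

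The highest member was the peak at the very end of chromosome 17. It lay at 95263239 to 95263459 in the coordinates of the list, was 221 bp long and had a pileup of 24.0, a fold of 9.74 and a -log10 q of 17.3. By pileup it ranked 19 among all autosomal peaks. The next, on chromosome 16 from 92476161 to 92476343 and just inside the 5 Mb limit, reached a pileup of 22.7 and a fold of 8.09. A peak on chromosome 10 from 127622093 to 127622301 reached 20.5 fragments and a fold of 9.39. Another on chromosome 12 from 117056703 to 117056987 reached 20.2 fragments and a fold of 8.36. Of the 10 highest members, 4 lay in the outermost 1 Mb. Besides the chromosome 17 peak these were a chromosome 8 peak from 131050438 to 131050660 (pileup 19.1, fold 9.87), a further chromosome 12 peak from 121157748 to 121157970 (17.3 and 9.90, the highest fold of the 10), and a chromosome 19 peak from 61341641 to 61341844.

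The chromosome 19 peak was unlike the others. It is the last peak of its chromosome, with a pileup of 18.3, but its background of 6.05 was the highest of all members and its fold of 2.74 the lowest, with a -log10 q of 1.93. It was the only member with a background over 3, compared with 19 such peaks in the interior. The remaining 3 of the 10 highest were on chromosome 2 (180553427 to 180553647, pileup 18.5), chromosome 5 (149878561 to 149878708, pileup 16.6) and chromosome 19 (58797664 to 58797856, pileup 16.0). These high peaks were between 148 and 285 bp long and came from 8 chromosomes. Of the 10, 9 had a background over the median of the members.

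The 19 peaks that end the chromosomes in the list were mostly ordinary. Their median pileup was 6.64 and their median fold 3.72, and 3 of them reached a pileup of 10. On chromosomes 4, 2 and 16, with the lowest ratios to the interior, the last peaks had pileups of 10.0, 7.83 and 7.43. On chromosomes 13 and 18, with high ratios, they had 5.70 and 6.46, while that of chromosome 17 was the highest member. At the inner limit, the member closest to it was that of chromosome 8 from 126707408 to 126707544, 4994 kb from the end, with a pileup of 8.37. The nearest peak left out was that of chromosome 10 from 124945674 to 124946151, 5004 kb from the end, with a pileup of 5.86.

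Close neighbours were somewhat fewer among these peaks than in the interior. Another peak centre within 10 kb was found for 334 members, or 29.2% (Wilson interval 26.7% to 31.9%), compared with 33.9% in the interior. This share depends on density, which was 12.0 peaks per Mb at the ends and 14.3 in the interior. Whether the shares differ beyond the difference in density was not tested. By end, the share ran from 6.06% on chromosome 15 and 11.8% on chromosome 4 to 44.6% on chromosome 17 and 44.7% on chromosome 10. It tended to be higher at denser ends, with 32.7% on chromosome 18 and 38.3% on chromosome 13. The order was not exact, since chromosome 2 had 26.1% at 4.60 peaks per Mb and chromosome 12 had 22.7% at 13.2. When centres at most 10 kb apart were joined, 38 groups of 3 or more peaks resulted, which held 11.5% of the members, compared with 11.2% of the interior peaks. Chromosome 17 had 9 of these groups, chromosomes 10 and 18 had 5 each, and 6 ends had none. The largest group had 6 peaks within 28.7 kb, on chromosome 10 at 129434742 to 129463438, with pileups from 5.78 to 7.93. It was named after its values had been seen.

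Of the members, 59 were on chromosome 8, where the density was 11.8 peaks per Mb at the end and 16.0 in the interior. Chromosomes 7 and 11 had 28 and 27 members.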

How the data were processed

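The deposited peak list of the Hmga2 ChIP library was analysed, and the input entered through the authors' peak calling only. Reads had been trimmed and mapped with BWA by the authors, who then ran MACS2 in broad mode on this library against the input, with nothing pooled. The deposited pileup is a signal that the caller averages over each peak. The 3 deposited score columns (fold, -log10 p and -log10 q) hold numbers with displaced decimal points. For fold and p they were restored from the relation between pileup, fold and Poisson p. For q they were placed near the running median of q over peaks ordered by p. For the strongest peaks a line fitted to p was used instead. The deviation given next is that of p only, and the counts by q rest on this placement. The restored p deviated from the Poisson p by 0.473% in the median and by up to 13.7%. The design had assumed intact columns. Depth was not taken from the list, so no interval needs it.

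The labels name mm9, the methods mm9 and GRCm38, and the build is not written in the list. On 7 autosomes the list runs past the end of the GRCm38 chromosome, so genes and sequences under peaks were not analysed here. GRCm38 (RefSeq) and GENCODE M21 served only for whole ends.

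Peaks named are the 10 highest in pileup, those at the limit, and the last peak on the 3 chromosomes with the highest and the 3 with the lowest ratio. Chromosomes were named for these ratios, for an interval without 1 or for a direction against the sum. Members, lists and limits were chosen with earlier results of these data known. Python 3.11.15 with scipy 1.17.1 was used, and the procedure was tested on simulated data. Alternatives covered the limit, the interior, the peak set, merged peaks and each chromosome left out.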

Additional observations from a re-analysis of the deposited data

How the results depend on the processing

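The lower density at the ends held with a q under 0.05, with peaks under 1 kb apart merged and without any single chromosome, with a ratio from 0.781 (without chromosome 17) to 0.875. It depended on the limit. The ratio was 0.763 with the limit at 10 Mb, 0.781 without the last 1 Mb and 1.01 at 2 Mb. For the last 1 Mb alone it was 1.08, and 1.01 without the peak that ends each chromosome. These 2 settings were added after seeing the data. The ratio was 0.973 for pileups of at least 10. It was 0.949 when the mean over the ends was set against the mean of the chromosomes' median windows, which are unlike measures. The number of chromosomes below their interior, 14, was 8 at 2 Mb, 8 for the last 1 Mb alone and 13 or 14 with a chromosome left out. The difference in median pileup, 0.010 fragments, was -0.32 among pileups of at least 10. Of 161 recomputed values, 150 stayed inside the interval of the reported value, or for the count of chromosomes within 1.5 times of it. The cause of the other changes was not tested. No paired analysis was possible because only 1 ChIP library was analysed. With pileups this low a single peak is weakly determined, and an end of 17 to 130 peaks fixes its density only to the intervals given.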
